A study of Mus musculus with 2 samples.

Results

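The small proline-rich (Sprr) genes encode short proteins that are built into the cornified envelope, the cross-linked protein shell under the membrane of stratified epithelial cells. 10 of them were followed by gene symbol: Sprr1a, Sprr1b, Sprr2b, Sprr2d, Sprr2e, Sprr2f, Sprr2g, Sprr2h, Sprr3 and Sprr4. Each has a row of its own on the array, out of 30698 genes that do. They were chosen with earlier results of these data known. A further 3 Sprr genes with their own row (Sprr2i, Sprr2j-ps and Sprr2k) and 2 rows shared by Sprr2a copies are given beside them, 15 Sprr rows in all. The tissue was corneal epithelium of male and female C57BL/6 mice, with no other allele named, aged 8 weeks and given ketamine and xylazine as anaesthetic. The injured sample came from eyes whose whole epithelium had been scraped off up to the limbus with a 0.5 mm rust ring remover. It was collected about 48 hours later, with 10% of the wound still open, and the uninjured sample came from the fellow eyes of the wounded animals. There was 1 array for each, and how many mice contributed to either was not stated in the labels. No difference below therefore has a replicate check or a p-value, and "higher" or "lower" refers to these 2 arrays.

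Sprr proteins are rich in proline, glutamine and lysine, and transglutaminases join their glutamine and lysine residues to other envelope proteins such as loricrin and involucrin, with Sprr proteins acting as short flexible bridges. The genes lie together on chromosome 3 in the epidermal differentiation complex, a run of genes for envelope, filaggrin-type and S100 proteins. In many stratified epithelia they are low in resting tissue and induced by injury, irritation or inflammation.

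The promoters are shown first, because windows with the same arrangement of 3 motifs belonged to genes with very different values on the arrays. Of these genes, Sprr2e read below 5.44, the median over the table, on both arrays, so its small difference says little. Whether the motifs bear on the values was not tested. RefSeq (GRCm38.p6) gave a promoter for 9 of the 10 genes, all but Sprr2g, and the 250 bases before the annotated start are printed 5′ to 3′ for 5 of them. Capitals mark matches on either strand to the AP-1 motif (TGACTCA or TGAGTCA), the octamer bound by POU factors (ATGCAAA, which reads TTTGCAT on the other strand) and the TATA box (TATAAA). Sprr2b is at chr3:92316455-92316704 (plus strand), Sprr2f at chr3:92364937-92365186 (plus strand) and Sprr2e at chr3:92351893-92352142 (plus strand). Sprr1b is at chr3:92438780-92439029 (minus strand) and Sprr1a at chr3:92485882-92486131 (minus strand).
Sprr2b: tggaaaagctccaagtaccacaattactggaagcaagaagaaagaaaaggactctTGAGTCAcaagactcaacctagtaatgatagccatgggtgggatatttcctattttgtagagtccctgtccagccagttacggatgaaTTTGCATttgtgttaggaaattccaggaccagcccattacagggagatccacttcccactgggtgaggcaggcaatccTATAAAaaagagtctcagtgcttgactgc
Sprr2f: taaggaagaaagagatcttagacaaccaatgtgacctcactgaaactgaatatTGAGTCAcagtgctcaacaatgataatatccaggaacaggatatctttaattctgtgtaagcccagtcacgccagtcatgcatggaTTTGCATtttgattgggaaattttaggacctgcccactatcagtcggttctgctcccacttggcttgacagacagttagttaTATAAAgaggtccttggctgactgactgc
Sprr2e: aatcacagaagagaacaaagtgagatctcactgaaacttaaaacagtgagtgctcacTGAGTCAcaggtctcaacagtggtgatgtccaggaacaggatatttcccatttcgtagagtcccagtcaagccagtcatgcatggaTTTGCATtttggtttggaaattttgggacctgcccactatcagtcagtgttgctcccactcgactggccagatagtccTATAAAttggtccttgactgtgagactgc
Sprr1b: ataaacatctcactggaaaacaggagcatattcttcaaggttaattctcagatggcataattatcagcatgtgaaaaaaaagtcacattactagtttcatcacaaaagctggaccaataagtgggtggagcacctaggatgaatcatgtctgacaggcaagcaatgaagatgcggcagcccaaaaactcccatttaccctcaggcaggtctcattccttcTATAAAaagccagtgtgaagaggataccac
Sprr1a: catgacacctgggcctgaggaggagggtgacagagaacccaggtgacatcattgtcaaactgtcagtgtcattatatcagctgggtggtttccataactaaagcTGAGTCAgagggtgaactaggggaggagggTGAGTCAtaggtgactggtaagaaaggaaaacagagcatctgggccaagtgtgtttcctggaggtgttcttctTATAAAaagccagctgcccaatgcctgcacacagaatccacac

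Of the 10 genes, the 5 Sprr2 genes with a RefSeq promoter (Sprr2b, Sprr2d, Sprr2e, Sprr2f and Sprr2h) held the same 3 matches in the same order. The AP-1 match began 193 to 198 bases before the start, the octamer 107 to 111 bases and the TATA box 29 bases before it. Sprr1a held a pair of AP-1 matches, beginning 146 and 116 bases before the start, and no octamer. Sprr1b and Sprr3 held a TATA box and neither of the other motifs, and Sprr4 held none of the 3. The RefSeq model of Sprr4 is only 231 bases long, so its window starts from that short model. Over the 9 genes, 6 windows held AP-1 (66.7%), 5 the octamer (55.6%) and 8 the TATA box (88.9%), against 4.46%, 4.12% and 12.4% of the 32851 promoter windows of the same length. None of 20 windows of late cornified envelope (Lce) genes held AP-1 or the octamer, while AP-1 was in 2 of 16 and the octamer in 0 of 16 windows of S100 genes from the complex. The TATA box was in 4 of these 20 Lce windows (20%) and in 4 of the 16 S100 windows (25%). The windows of Sprr2a1, Sprr2a2 and Sprr2a3, whose shared rows were also far higher after injury, held none of AP-1, octamer and TATA. The RefSeq models of these 3 genes are longer (6657, 6658 and 3961 bases) than that of Sprr2b (1381 bases), so their windows may start elsewhere in the gene. The windows of Sprr2i (difference 0.36) and Sprr2k (0.76), whose values stayed under 5.44, the median over the table, on both arrays, held the same arrangement as Sprr2b, with a pair of AP-1 matches in Sprr2k. The windows of the 5 Sprr2 genes were 57.0% to 88.9% identical to each other, so they are not separate instances, and a match describes letters only.

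A further 5 motifs were searched in the same windows, on both strands. The Ets core (AGGAAG) was in 3 of the 9, against 29.5% of all windows, and the Krüppel-like motif (CCACCC) in 4 of 9, against 28.1%. The antioxidant element (TGACNNNGC) was in Sprr2f and Sprr1a, against 10.2% of all windows, and overlapped an AP-1 match in Sprr1a. In windows of Lce genes and of S100 genes from the complex, the Ets core was in 50% and 25%, the Krüppel-like motif in 5% and 56.2%, and the antioxidant element in 25% and 18.8%. None of them was therefore particular to the Sprr windows. The STAT motif (TTCNNNGAA, 7.02% of all windows) and the Grainyhead motif (ACCGGT, 1.86%) were in none of the 9. These 2 results say only that the letters are not in these 250 bases.

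**Figure D1:**
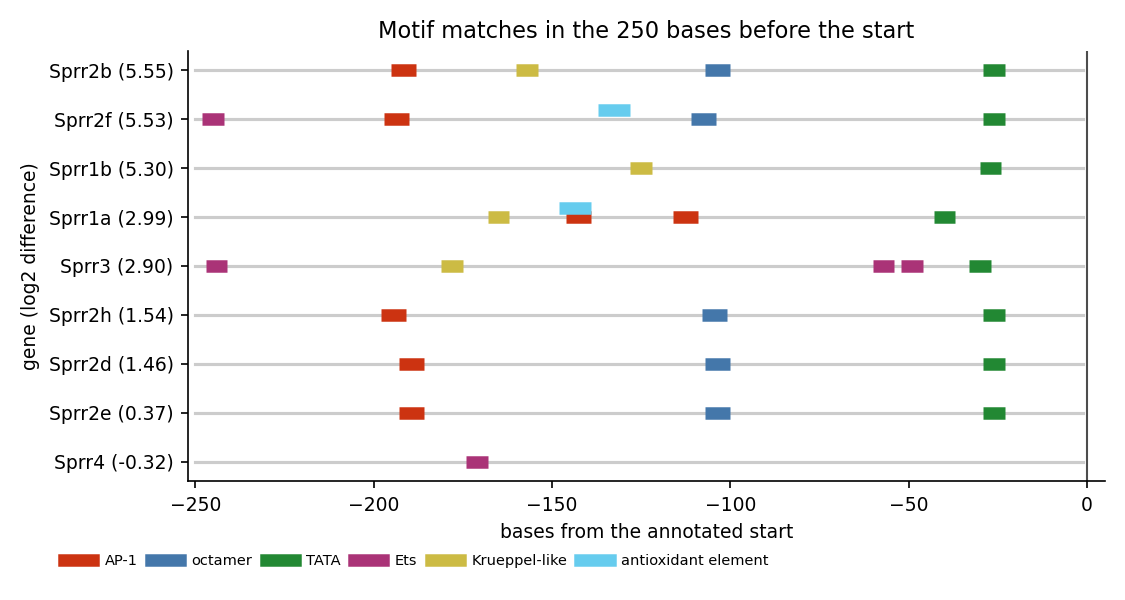
Horizontal axis: distance in bases from the annotated start; each line is the 250-base window of 1 Sprr gene, ordered by its log2 difference (injured minus uninjured, in brackets), and each coloured block is a motif match, with the antioxidant element drawn slightly raised. Sprr2b (5.55), Sprr2f (5.53), Sprr2h (1.54), Sprr2d (1.46) and Sprr2e (0.37) carry AP-1, octamer and TATA in the same arrangement. Sprr2e read below the median over the table on both arrays, and Sprr2d and Sprr2f on the uninjured array.

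Most Sprr genes were higher in the healing epithelium, by very unequal amounts. Of the 10, 8 were at least 2-fold higher, 0 were at least 2-fold lower, and Sprr2e and Sprr4 lay less than 2-fold apart. Of those 8, Sprr2d, Sprr2f, Sprr2g and Sprr3 read below 5.44, the median over the table, on the uninjured array. The size of their difference is therefore uncertain. Sprr1b, Sprr2b and Sprr2h read only 0.37, 0.39 and 0.36 above that median there, so the size of their difference is uncertain too. The median log2 difference of the 10 was 2.44 (5.44-fold), against 0.04 over all 30698 named genes, of which 2.64% were higher by 2-fold or more and 2.52% lower. At 4-fold or more the count was 5 of 10, against 0.45% of named genes, and at 16-fold or more 3 of 10, against 0.0521%. Only 16 named genes were at least 16-fold higher, and Sprr2b, Sprr2f and Sprr1b had ranks 3, 4 and 5 by difference among the 19512 genes with enough signal. Since each sample is whole epithelium, more cells of a kind and more RNA per cell cannot be told apart.

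Sprr1b, a bridging envelope precursor of squamous epithelia, read 5.80 on the uninjured and 11.10 on the injured array (log2 intensity). The difference was 5.30, or 39.4-fold. The uninjured value sat just above 5.44, the midpoint of the whole table's values (their median), which serves here as the low-signal level. Its sister gene Sprr1a, known also as a gene that regenerating neurons switch on, went from 9.81 uninjured to 12.80 injured, a difference of 2.99 (7.94-fold). Sprr1a was already well above the low-signal level in the intact epithelium, by 4.37 on the log2 scale.

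The Sprr2 genes, a tandem run of related copies, spanned nearly the whole range of differences. Sprr2b read 5.83 uninjured and 11.39 injured, a difference of 5.55 (47.0-fold). Sprr2f, best known for its induction by oestrogen in the uterus, read 4.53 uninjured and 10.06 injured, a difference of 5.53 (46.4-fold). Of this pair only Sprr2f lay below the low-signal level on the uninjured array. Sprr2h went from 5.80 to 7.33 (1.54, 2.90-fold). Sprr2h was above that level on both arrays, on the uninjured one by only 0.36, as Sprr2b was by 0.39. Sprr2d went from 4.83 to 6.29 (1.46, 2.75-fold). Sprr2g, annotated by RefSeq as a transcribed pseudogene, went from 3.56 to 5.54 (1.99, 3.97-fold). Sprr2d and Sprr2g passed the low-signal level on the injured array alone, and Sprr2g by only 0.11, so the size of their difference is uncertain. Sprr2e read 4.61 uninjured and 4.97 injured, below the low-signal level on both arrays, and its difference of 0.37 says little.

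Sprr2d, Sprr2e and Sprr2f are neighbours in the gene order and their promoters were compared. Over the 250 bases the promoters of Sprr2d and Sprr2e were 88.9% identical, those of Sprr2e and Sprr2f 72.6% and those of Sprr2d and Sprr2f 70.0%. The differences of these 3 genes were 1.46, 0.37 and 5.53. Sprr2e was below the low-signal level on both arrays, and Sprr2d and Sprr2f on the uninjured array, so the contrast between them is uncertain in size. The promoters of Sprr2b and Sprr2f, genes that differed by 5.55 and 5.53 between the arrays, were 61.3% identical. For scale, the same alignment gave 43.4% for Sprr2a3 and Sprr4 and 53.3% for Sprr2h and Sprr3, pairs from different subgroups. Rows of multigene families can share signal between copies, and neither transcript nor probe sequences were compared here, so how much of each value belongs to its named gene is uncertain.

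Sprr3, an envelope precursor typical of oral and oesophageal epithelium, went from 4.10 uninjured to 6.99 injured, a difference of 2.90 (7.45-fold). Its uninjured value was below the low-signal level. Sprr4, at the end of the Sprr run next to involucrin, was the single gene of the 10 with a lower injured value: 5.84 uninjured and 5.53 injured, a difference of -0.32. Both Sprr4 values lay within 0.41 of the low-signal level.

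**Figure D2:**
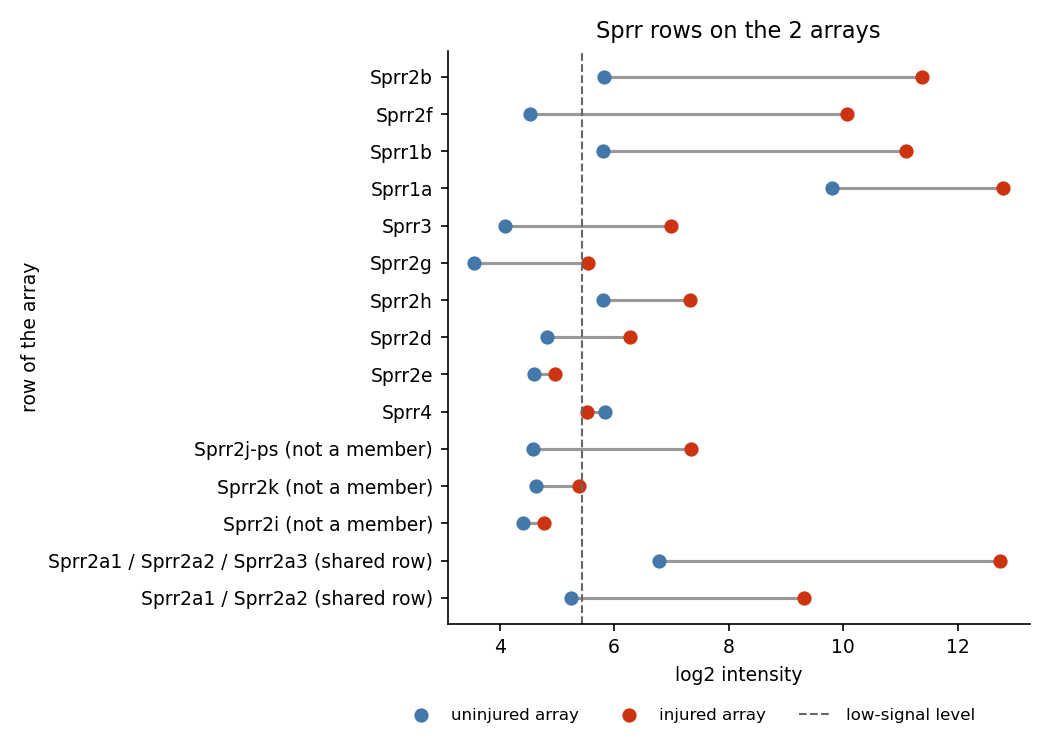
Horizontal axis: log2 intensity; each line joins the uninjured (blue) and injured (red) value of 1 row, 1 array each, with no error bar because there are no replicates. The dashed line is the low-signal level of 5.44: of the 10 genes, Sprr1a, Sprr1b, Sprr2b, Sprr2h and Sprr4 are above it on both arrays and Sprr2e on neither.

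The 2 rows shared by Sprr2a copies were also higher. The row shared by Sprr2a1, Sprr2a2 and Sprr2a3 went from 6.78 uninjured to 12.75 injured, a difference of 5.97 (62.5-fold), above that of any of the 10 genes. The row shared by Sprr2a1 and Sprr2a2 went from 5.25 to 9.32 (4.07, 16.8-fold). These rows name overlapping genes and disagreed by 1.89 on the log2 scale. Of the other Sprr genes, Sprr2j-ps, a transcribed pseudogene, went from 4.59 to 7.35 (2.75, 6.74-fold). Sprr2k (4.63 uninjured, 5.39 injured) and Sprr2i (4.42 uninjured, 4.77 injured) stayed below the low-signal level on both arrays, with differences of 0.76 and 0.36. Counting all 15 Sprr rows, 11 were higher by 2-fold or more and 0 lower, against 2.64% and 2.52% of the 30698 named genes. Because the shared rows overlap, these are not 15 separate observations.

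Differences could be ordered only coarsely. With single arrays, the only yardstick is how far rows of the same gene disagree, an SD of 0.242 in the log2 difference over 542 rows of 256 genes, which gives 0.342 for the gap between 2 rows and holds no spread between animals. Sprr2b, Sprr2f and Sprr1b followed each other with gaps of 0.02 and 0.23, under that SD. A gap of 2.31 separated Sprr1b from Sprr1a, and Sprr1a and Sprr3 were 0.09 apart. Sprr2g, Sprr2h and Sprr2d came next, the last pair 0.08 apart. With a constant of 20.9 added to both arrays before the log2 step, Sprr1b (4.85) came before Sprr2f (4.63) and Sprr2h (1.25) before Sprr2g (1.05), so the order within these pairs is not settled. Sprr2e lay 1.09 below Sprr2d and 0.68 above Sprr4. The 2 rows that name overlapping Sprr2a copies disagreed by 1.89, far more than 0.342, so the yardstick may be too small for Sprr rows. Of the gaps between genes next to each other in this order, only that of 2.31 was larger than 1.89.

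The 4 genes whose uninjured value lay below the low-signal level and whose injured value lay above it (Sprr2d, Sprr2f, Sprr2g and Sprr3) passed a filter on the brighter value only through the injured array. Sprr2e alone did not pass it. Of the 19512 genes that passed, 4.14% were at least 2-fold higher. Taking only genes at or above the level on the uninjured array, a choice made after the values were seen, 4 of 5 Sprr genes were at least 2-fold higher (Sprr1a, Sprr1b, Sprr2b and Sprr2h, not Sprr4), against 3.83% of 18817 genes. Of these 5, only Sprr1a was well above the level there. Sprr1b, Sprr2b, Sprr2h and Sprr4 exceeded it by 0.37, 0.39, 0.36 and 0.41. With an added constant the differences of Sprr1b, Sprr2b and Sprr2h were 4.85, 5.11 and 1.25. The added constant shrinks differences that start from a low value. With it the fold was 24.8 for Sprr2f, 3.90 for Sprr3, 2.07 for Sprr2g and 2.01 for Sprr2d. The fold of Sprr1a was then 7.78 and that of Sprr2b 34.6.

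**Figure D3:**
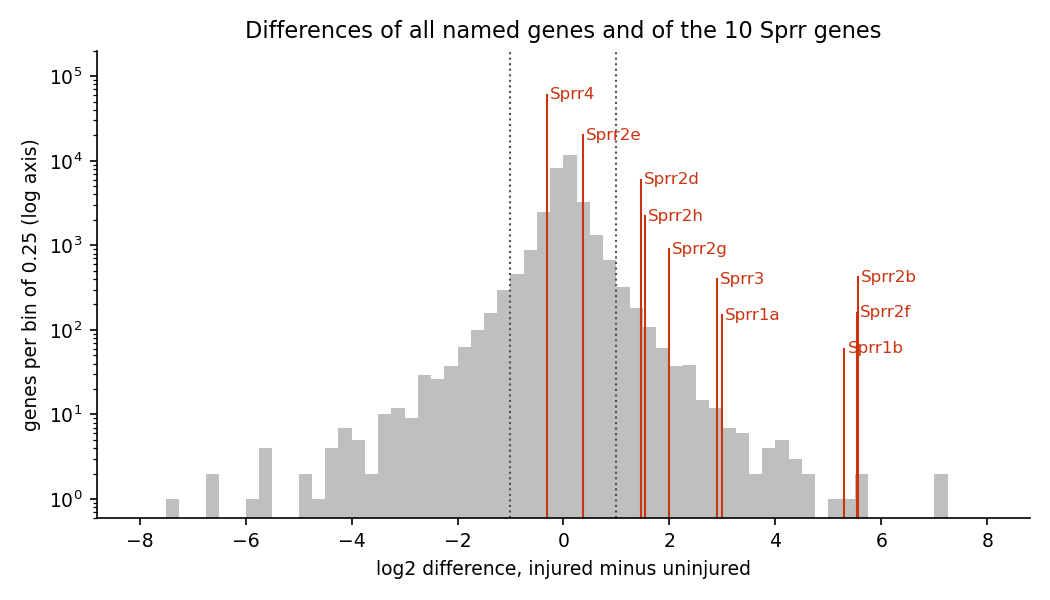
Horizontal axis: log2 difference, injured minus uninjured; grey bars count the 30698 named genes in bins of 0.25 on a log axis, and red lines mark the 10 Sprr genes, their heights set only to separate the names. Dotted lines are 2-fold: 8 Sprr genes lie to the right, and Sprr2b, Sprr2f and Sprr1b lie past 5 where few other genes are.

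The genes on either side of the Sprr run lay less than 2-fold apart between the arrays. In the gene order of the complex, from S100a1 to S100a10, the nearest gene above the low-signal level before the Sprr genes was Lor (loricrin, a main envelope protein of the epidermis), with 6.83 uninjured and 6.76 injured (-0.07). The 3 genes between Lor and the run (Prr9, Lelp1 and Gm35439) were below the low-signal level. The nearest one after the run, directly beside Sprr4, was Ivl (involucrin, an early envelope scaffold), with 7.59 uninjured and 7.78 injured (0.19). Of 35 other genes of the complex above the low-signal level, S100a9 was higher and Kprp and Lce3a lower by 2-fold or more, with a median difference of 0.04. Over all genes above that level, 4.14% were higher and 3.92% lower by as much. Inside the run, the pseudogene Gm9774, between Sprr2j-ps and Sprr2k, differed by 0.61 (9.51 uninjured, 10.13 injured).

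**Figure D4:**
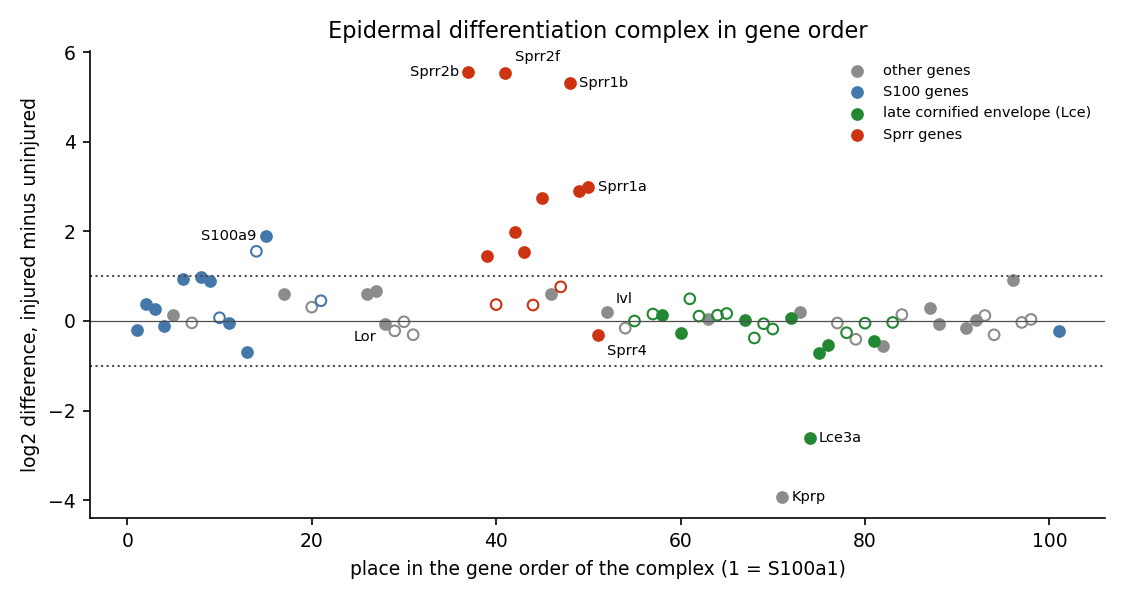
Horizontal axis: place of each gene in the order of the epidermal differentiation complex; vertical axis: log2 difference, injured minus uninjured. Filled points passed the low-signal filter, open points did not, and dotted lines are 2-fold. Most Sprr genes stand well above their neighbours Lor (-0.07) and Ivl (0.19). Sprr2e (0.37) and Sprr2i (0.36) lie close to Ivl and below the pseudogene Gm9774 (0.61) inside the run, and Sprr4 (-0.32), at its edge, lies below both neighbours.

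None of the enzymes that cross-link Sprr proteins was at least 2-fold higher. Of 8 transglutaminase genes 4 were above the low-signal level, 0 of them higher by 2-fold or more and 2 lower by as much. Across all genes above that level these shares were 4.14% and 3.92%. Tgm1, the membrane-bound enzyme of keratinocyte envelopes, went from 9.23 to 10.11 (0.88, 1.84-fold). Tgm5, another epidermal enzyme, went from 9.19 to 8.05 (-1.14), and the widely expressed tissue transglutaminase Tgm2 from 10.31 to 6.74, a difference of -3.58 (12.0-fold lower). The list median was -0.48. It was 0.02 with no low-signal filter and -1.14 with the level at the 75th percentile.

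Other proteins of the envelope were divided. Of 17 measured of 19 listed, 4 were higher and 3 lower by 2-fold or more. Over all 19512 genes that passed the filter, 4.14% were higher and 3.92% lower. The list median was -0.14, against 0.06 over those genes. Higher were Krtdap, a keratinocyte differentiation protein, from 4.59 to 8.48 (3.89), Dmkn (dermokine) by 2.32, Sbsn (suprabasin) by 1.22, and Cnfn (cornifelin) by 1.02. Cnfn was the closest to the threshold, and with quantile normalization 3 envelope proteins were higher. Lower were the keratinocyte proline-rich protein Kprp, from 8.34 to 4.42 (-3.92), the protease inhibitor Csta1 (-1.67) and the scaffold protein Evpl (envoplakin, -1.28). The uninjured value of Krtdap and the injured value of Kprp were below the low-signal level. Kprp is also proline-rich and lies in the same complex, and its difference was opposite to that of the Sprr genes.

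The other gene families of the complex held 1 gene above the low-signal level that was at least 2-fold higher, S100a9. Over all genes above that level, 4.14% were higher and 3.92% lower by as much. Of 8 measured late cornified envelope genes (21 listed), 0 were at least 2-fold higher and Lce3a was lower, from 8.18 to 5.58 (-2.60), with a list median of -0.36, which was -0.04 with no low-signal filter and -1.57 with the level at the 75th percentile. The S100-fused type proteins, such as filaggrin, had 3 of 7 measured and 0 past 2-fold (median -0.07). Of 11 measured S100 genes (14 listed), S100a9, a calcium-binding alarmin, was higher, from 5.77 to 7.67 (1.89), and the list median was 0.26. S100a2 (0.98), S100a3 (0.94) and S100a4 (0.90) were higher by just under 2-fold. S100a8, the partner of S100a9, went from 3.77 to 5.32 and stayed below the low-signal level.

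Transcription factors listed here as possible regulators of Sprr promoters showed both directions. Of 23 measured of 25 listed, 2 were higher and 4 lower by 2-fold or more, with a median of -0.32. Over all genes that passed the filter, 4.14% were higher and 3.92% lower. Binding to the Sprr promoters was not tested. Among AP-1 subunits, Fosl1 was higher, from 6.66 to 7.75 (1.09), while Fos was lower, from 9.75 to 7.75 (3.99-fold), as was Fosl2, from 10.23 to 8.74 (-1.49). Jun (-0.13) and Jund (-0.24) were less than 2-fold apart. Ets1 was higher (1.19), and the epithelial Ets factors Elf3 (-0.80) and Ehf (-0.70) less than 2-fold apart. Klf4, a differentiation factor of surface epithelia, was lower (-1.27), as was the repressor Prdm1 (-1.76). Pou2f3, the keratinocyte octamer factor, went from 6.96 to 6.32 (-0.64).

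Ligands and receptors listed here as possible inducers of Sprr genes had 3 of 21 measured (24 listed) higher by 2-fold or more and 3 lower. The shares over all genes that passed the filter were 4.14% and 3.92%. The list median was 0.29. Il24, a cytokine of the interleukin 10 family, went from 5.29, below the low-signal level, to 9.31 (4.03). The interleukin 4 and 13 receptor subunits Il13ra1 (1.38) and Il4ra (1.22) were also higher, whereas Il13 itself read 5.67 uninjured and 5.96 injured. Il1f8 (interleukin 36 beta, -1.76), the interleukin 20 receptor subunit Il20ra (-1.22) and the oncostatin M receptor Osmr (-1.05) were lower. No test links any of these genes to the Sprr values.

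**Figure D5:**
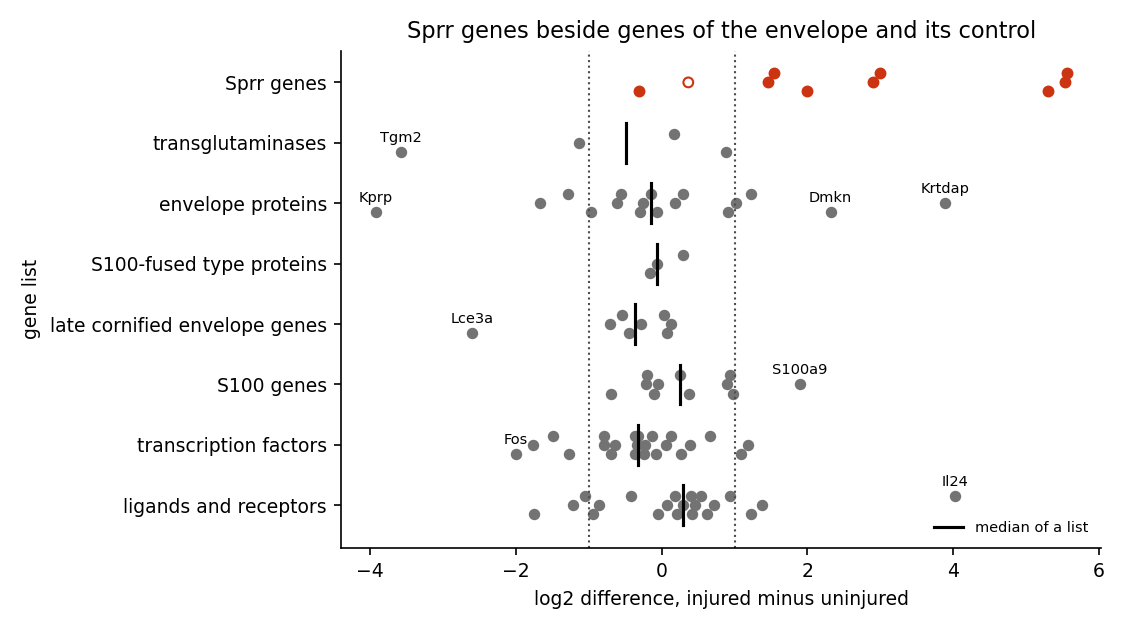
Horizontal axis: log2 difference, injured minus uninjured; each point is a gene above the low-signal level (the open point is Sprr2e, below it), rows are gene lists, black bars are list medians and dotted lines are 2-fold; vertical scatter within a row only separates points. The Sprr genes reach 5.55, while the list medians lie between -0.48 and 0.29.

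The 5 genes outside the family whose difference was closest to 2.90, the median of the 9 Sprr genes that passed the filter, were D17H6S56E-5 (2.90), the membrane protein gene Tm4sf1 (2.87), the semaphorin co-receptor Nrp2 (2.82), the stress-response factor Nupr1 (2.99) and the galectin Lgals1 (2.99). The value of 2.90 is that of Sprr3 itself, whose uninjured value was below the low-signal level and whose difference was 1.96 with the added constant. The median over all 10 genes was 2.44, so which genes are closest rests on the filter, and the likeness is in 1 difference between 2 arrays.

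The tissue label was checked on marker lists, and markers of other cells were set beside the Sprr values. For comparison, 4.14% of all genes that passed the filter were at least 2-fold higher and 3.92% lower. Of the corneal epithelial markers all 7 with a row of their own were above the low-signal level on both arrays, with Krt12, the corneal keratin, at 14.07 uninjured and 10.85 injured, and Krt5, a basal keratin, at 13.85 and 13.69. Krt12, the eye-field factor Pax6 (10.63 and 9.31), the crystallin-like enzyme Aldh3a1 (13.66 and 10.98) and the secreted protein Slurp1 (13.22 and 6.61) were at least 2-fold lower, Krt14, another basal keratin, was higher (11.16 and 13.38), and Cdh1 (E-cadherin) read 11.46 and 11.82. Tkt shares a row with another gene. The summed linear intensity of these corneal markers was 61170 uninjured and 32120 injured. Of 9 conjunctival and goblet cell markers, epithelia that can also express Sprr genes, the keratins Krt19, Krt7 and Krt8 were higher and the mucin Muc5ac lower by 2-fold or more, and the summed linear intensity was 10708 uninjured and 13318 injured. Krt13 (12.06 and 11.77) and Krt4 (11.85 and 11.98) were bright on both arrays. Of 8 markers of lid epidermis, 0 passed 2-fold (summed intensity 971 uninjured, 875 injured). Of 9 neutrophil markers 6 were above the low-signal level, with S100a9 alone past 2-fold there, and the sum was 358 uninjured and 554 injured. Ngp, Retnlg and S100a8 were below that level on both arrays. Of 7 macrophage markers 5 were above it, 0 past 2-fold (sum 806 uninjured, 964 injured). Of 5 stromal markers 3 were above it and Dcn was lower (-1.31; sum 348 uninjured, 281 injured). The part of these cells in the Sprr differences was not tested.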

How the data were processed

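RNA of 2 samples, 1 injured and 1 uninjured corneal epithelium, was measured on 1 array each, with 2 µg of RNA labelled with biotin, per the labels' protocols. The authors deposited log2 intensities for 65952 rows. Agilent Feature Extraction 9.1 is named in the submitters' processing notes, though rows carry transcript-cluster identifiers. The sources used here do not state background correction, probe summary, normalization or genome build. Column medians differed by 0.0135, under the limit of 0.1, so values were used as deposited. No detection or saturation call was used, and the number of arrays limits the precision.

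Rows were named from the platform annotation, with symbols updated through RefSeq (GRCm38.p6): 31254 rows carried 1 gene, 1492 several and 33206 are unnamed here. A gene passed the low-signal filter when its brighter value reached 5.44, the median of all values, and the row with the highest mean stood for a gene. The calling threshold was 2-fold. No significance test was run. Named from each gene list were up to 3 genes higher and 3 lower past 2-fold, by size; all Sprr rows and tissue markers; and the 5 genes nearest in difference. Cnfn, Klf4, Tgm1, Jun, Jund, Elf3, Ehf, Pou2f3, Il13, S100a2, S100a3, S100a4, S100a8, Gm9774, Prr9, Lelp1, Gm35439 and single markers of other cell types were named after their values were seen. The members and lists were chosen with earlier results of these data known.

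Promoter windows were searched for 8 motifs and aligned globally with Biopython 1.88. Calling was tested on simulated data. Alternatives were a loess with a span of 0.3, quantile normalization, equal 75th percentiles, equal medians, a constant of 20.9 (the 25th percentile of linear values), other filters, row choices and thresholds. Python 3.11.15, pandas 2.3.3, scipy 1.17.1 and statsmodels 0.14.6 were used.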

Additional observations from a re-analysis of the deposited data

Results flagged for a closer look

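Rows that carry no gene name were also higher next to the Sprr genes in the row numbering. Row numbers follow the strand for 882 of 894 chromosome 3 rows with a known strand. The rank correlation of row number and gene start was 1 for the plus strand and 0.89 for the minus strand, where these rows are numbered, so their place is approximate. Between the rows of Prr9 and Gm9774, in the minus-strand numbers, lie 5 unnamed rows, of which 3 were at least 2-fold higher in the injured sample. They differed by 4.75 (TC0300002385, 6.50 uninjured and 11.25 injured), 3.49 (TC0300002389, 6.47 and 9.96) and 1.76 (TC0300002387, 4.47 and 6.24). The other 2 rows hold identical values (4.42 and 5.14, a difference of 0.72), and both are below the low-signal level. Of 33206 unnamed rows on the arrays, 1.15% were at least 2-fold higher and 19 were at least 8-fold higher. These rows stand out because they are outside the named genes compared above. Their place is read from the numbering alone, and whether they carry signal from the Sprr2 copies was not tested.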

How the results depend on the processing

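No paired analysis was possible because each group has 1 array, so no replicate could be left out either. Of 373 alternative values 332 stayed close to the main one, 41 moved, and 0 called differences changed sign. Close was a loose label, since it held the fall of the 808 higher genes to 639 with the constant. The transglutaminase median moved from -0.48 to 0.02 with no low-signal filter, and to -1.14 with a filter at the 75th percentile, on the mean or on the uninjured value. The median of the late cornified envelope genes moved from -0.36 to -0.04 with no filter and to -1.57 with that at the 75th percentile. Under the 4 normalizations no value of the 15 Sprr rows shifted by more than 0.05. The added constant moved 11 of them, none in sign, and Sprr2d then lay at 1.01. The count of Sprr genes at least 2-fold higher was 8 of 10 with no low-signal filter, against 2.64% of named genes. It was 8 of 9 that passed the filter, against 4.14%, though 4 of the 8 passed only through the injured array. It was 5 with a threshold of 4-fold and 6 of 6 with the filter at the 75th percentile. It was 7 of 8 with a filter on the mean and 4 of 5 with one on the uninjured value. These 2 filters test fewer genes and were chosen after seeing the data. The 808 higher and 764 lower genes became 2173 and 1710 at 1.5-fold, and 138 and 152 at 4-fold.

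At 1.5-fold, where 2173 of all 19512 genes were higher and 1710 lower, the lists held 1 higher and 2 lower transglutaminases, and 5 higher and 5 lower envelope proteins. They also held 0 higher and 2 lower late cornified envelope genes, 4 higher and 1 lower S100 genes, and 3 higher and 8 lower transcription factors. Of ligands and receptors, 6 were higher and 5 lower. At 4-fold they held 0 higher and 1 lower transglutaminase, 2 higher and 1 lower envelope proteins, and 0 higher and 1 lower late cornified envelope gene. There were then 0 higher and 0 lower S100 genes, 0 higher and 0 lower transcription factors, and 1 higher and 0 lower ligands and receptors. With no low-signal filter 2 S100 genes were higher, and with the constant 0 transcription factors were higher.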
